A study of Homo sapiens with 48 samples.

Results

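The early response of control cells to dexamethasone was measured in U2OS, a human osteosarcoma cell line, in a clone that stably carries the wild-type rat glucocorticoid receptor alpha. The comparison takes the 8 control arrays with 2 h of hormone against the 8 control arrays with none, 16 of the 48 arrays in the study. It pools both kinds of control: 4 arrays at each time from cells given no siRNA (NI) and 4 from cells given a nonspecific siRNA at 60 pmol per well (siNS). The samples were chosen by these labels and not by any measured value. Every cell in the study, untreated cells included, carried the introduced rat receptor, so the response is that of 1 receptor-bearing clone. The other arrays are 16 control arrays at 4 h and 24 h of hormone and 16 of cells given an siRNA against Hic-5 (siHic5_2), a coregulator of nuclear receptors that is also found at focal adhesions, encoded by TGFB1I1. All wells were harvested together, and for 2 h and 4 h of treatment the hormone was added 3 days after transfection.

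Dexamethasone is a synthetic glucocorticoid. It binds the glucocorticoid receptor, which leaves its chaperones in the cytoplasm, enters the nucleus and binds DNA at palindromic response elements or acts at sites held by other factors such as NF-kappa-B and AP-1. The receptor is known for raising transcripts of feedback and metabolic regulators and for lowering those of cytokines and growth factors, and transcripts that change within the first hours include many direct targets.

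Values are the authors' processed log2 array signals, and a probe counts as above background on an array where its detection p, recomputed from the negative-control probes, is under 0.01. On the 16 arrays, 15263 to 17651 probes were above background, 32.3 to 37.3% of those on the array. A gene was called where the adjusted p of a limma fit with transfection state and replicate number as blocks was under 0.05, and differences below are log2 values at 2 h minus those at 0 h with their standard error (SE). Of 13 mesenchymal markers 9, VIM, CDH2, COL1A1, RUNX2 and SPARC among them, were above background on all 16 arrays, while COL1A2 was on 1. Of the epithelial markers EPCAM and KRT8 were above background on all 16 arrays, and CDH1, KRT5 and KRT19 on none. KRT14 was above background on 14 arrays, ELF3 on 15, and the mesenchymal NT5E and TWIST1 on none. Of the blood markers, PTPRC was above background on no array, CD14 on 1 and CD68 on all 16. Of the endothelial markers, PECAM1 and CDH5 were on none, TEK on 5 and VWF on 8. Whether the replicates were grown as separate cultures is not in the labels, and the p-values rest on the spread of these arrays, some of which may be technical. In bulk RNA, fewer cells with a transcript and less of it per cell cannot be told apart.

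Within 2 h, 1708 of 10690 genes were called, which is 16% of those tested: 646 were higher (6.04%) and 1062 lower (9.93%). Whether falls outnumbered rises varied with the setting. Among probes, 1096 rises and 1531 falls were called. Falls also led without the replicate block (499 rises, 630 falls), with a random slide effect (914, 1328) and in the siNS arrays alone (488, 600). They led too when all 48 arrays were fitted with slide (541, 671). On the 16 arrays, rises led once slide was a fixed term, whether beside the replicate number (358, 291) or replacing it (206, 89). The NI arrays alone gave nearly equal numbers (347, 349). At least a 2-fold change was reached by 110 rises (1.03%) and 108 falls (1.01%), and the median difference was 0.50 among the genes called higher and -0.45 among those called lower. All 1708 had the same sign in the NI and the siNS arrays, which the call on both sets together largely fixes. In 288 genes (2.69% of those tested) the 8 arrays at 2 h did not overlap the 8 at 0 h, 145 of them rises and 143 falls.

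Array slide, inferred from the number that opens each array's name and renumbered here, moved with time. Of the 8 arrays at 2 h, 5 lay on slide 5, which held no control array at 0 h. Slides 1, 2 and 3 held both times. With slide as a block beside the replicate number, 420 genes were called (3.93%), 406 of them among the 1708, and 1707 of the 1708 had the same sign. Of the 218 genes changed at least 2-fold, 184 were called with the slide block, 203 without the arrays of slide 5, and all 218 had the same sign in both. Within slides 1, 2 and 3 taken alone, 91.6, 93.5 and 73.9% of the 1708 genes had the same sign. These settings reuse arrays that made the calls, so the shared signs are not a separate check. The count that was also called with the slide block is given beside the gene groups below, to be read against the 406 of 1708 over all genes.

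The largest rises included PDK4, FAM90A1, TXNIP and TIPARP. PDK4, the kinase that shuts pyruvate out of mitochondrial oxidation, was above background on no array at 0 h and on all 8 at 2 h, with a lowest, median and highest value of 4.88, 5.32 and 5.94 at 0 h and 11.10, 11.79 and 12.40 at 2 h (3 values given for a gene at a time are in this order throughout). It was at least 51.4-fold higher at 2 h (means 5.43 and 11.77, adjusted p = 3.30e-13). TXNIP, an inhibitor of thioredoxin and of glucose uptake, had 6.35, 7.14 and 7.56 at 0 h and 11.11, 11.85 and 12.59 at 2 h, so that the lowest treated array lay more than 3 log2 units above the highest untreated one. The difference was 4.79 ± 0.14 (adjusted p = 7.39e-12), a 27.8-fold rise. TIPARP, a mono-ADP-ribosyltransferase that restrains the aryl hydrocarbon receptor, had values of 7.51, 8.07 and 8.43 at 0 h and 12.21, 12.57 and 12.85 at 2 h and rose by 4.57 ± 0.10 (adjusted p = 3.30e-13). The plot of single arrays below shows these separations, and the groups of every one of the 15 largest rises were apart.

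**Figure D1:**
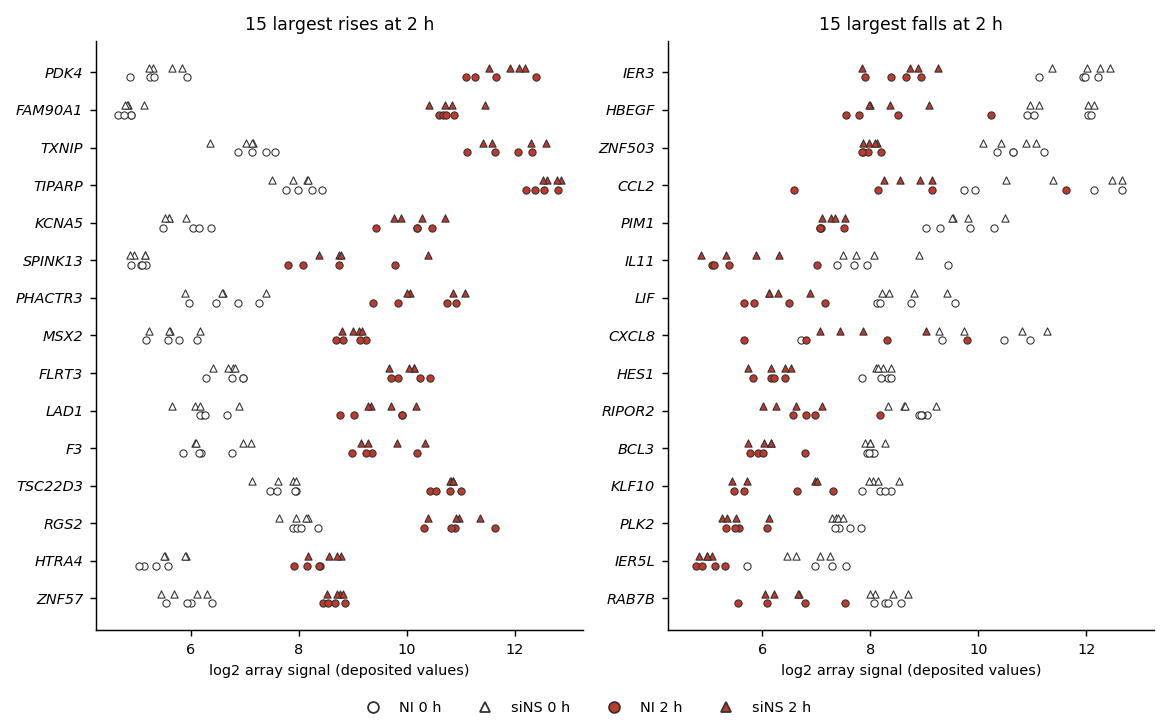
Log2 array signal (horizontal axis) of the 15 genes with the largest rises and the 15 with the largest falls that went the same way in all 8 pairs of arrays. Each point is 1 array, open at 0 h and filled at 2 h, circles for NI and triangles for siNS; the arrays at the 2 times overlap only for CCL2 and CXCL8.

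FAM90A1 was also above background on no array at 0 h and on all 8 at 2 h, with values of 4.66, 4.83 and 5.14 and then 10.41, 10.72 and 11.46, at least 26.1-fold higher (means 4.85 and 10.79, adjusted p = 4.91e-14). KCNA5, the voltage-gated potassium channel Kv1.5, was above background on 1 array at 0 h and went from 5.49, 5.77 and 6.37 to 9.43, 10.19 and 10.72, a difference of 4.28 ± 0.14 (adjusted p = 2.89e-11). SPINK13, of the Kazal family of serine protease inhibitors, was at least 6.77-fold higher (means 5.05 and 8.84, adjusted p = 6.40e-08), again from below background on all 8 untreated arrays. Its arrays ran 4.89, 5.09 and 5.17 at 0 h and spread widely at 2 h, 7.80, 8.75 and 10.40.

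The other leading rises were of genes with varied roles. PHACTR3, which binds actin and protein phosphatase 1, rose by 3.73 ± 0.12 (adjusted p = 2.81e-11), from 5.90, 6.59 and 7.39 to 9.39, 10.40 and 11.09. MSX2, a homeobox factor of craniofacial and bone development, was above background on 1 array at 0 h and rose by 3.34 ± 0.11 (adjusted p = 2.81e-11). RGS2, which speeds the shut-off of G-protein alpha subunits, rose by 2.90 ± 0.17 (adjusted p = 1.97e-08). The treated and untreated arrays of all 3 genes stood apart. F3, tissue factor, which starts blood clotting, rose 8.82-fold (SE 0.14 on the log2 scale) with 5 of 8 untreated arrays above background (adjusted p = 6.28e-10). FLRT3, a membrane protein with leucine-rich repeats and fibronectin type III domains, rose by 3.31 ± 0.12 (adjusted p = 1.10e-10). LAD1, the basement membrane protein ladinin, rose by 3.25 on the probe used and by 1.13 on its other kept probe. HTRA4, a serine protease, and ZNF57, a zinc finger protein, rose by 2.89 and 2.74, and were above background on 1 and 3 untreated arrays. TSC22D3, the glucocorticoid-induced leucine zipper GILZ, which binds and restrains NF-kappa-B and AP-1, had values of 7.15, 7.76 and 7.96 at 0 h and 10.43, 10.82 and 11.00 at 2 h and rose by 3.07 ± 0.10 (adjusted p = 3.48e-11).

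Of the 15 leading rises 3 carry the core letters of a receptor element, ACANNNTGT on either strand, within 250 bases before to 50 after their annotated start. Their RefSeq promoters (GRCh38.p14) are shown with these letters in capitals, because they are the leading rises with a match. KCNA5 lies at chr12:5043629-5043928, plus strand, TSC22D3 at chrX:107775939-107776238, minus strand and TXNIP at chr1:145996530-145996829, minus strand.
KCNA5: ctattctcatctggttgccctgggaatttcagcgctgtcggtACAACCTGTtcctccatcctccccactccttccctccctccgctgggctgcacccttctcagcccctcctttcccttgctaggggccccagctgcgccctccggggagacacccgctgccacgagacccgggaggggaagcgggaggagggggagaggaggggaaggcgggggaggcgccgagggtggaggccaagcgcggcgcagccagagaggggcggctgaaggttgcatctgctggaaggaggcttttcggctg
TSC22D3: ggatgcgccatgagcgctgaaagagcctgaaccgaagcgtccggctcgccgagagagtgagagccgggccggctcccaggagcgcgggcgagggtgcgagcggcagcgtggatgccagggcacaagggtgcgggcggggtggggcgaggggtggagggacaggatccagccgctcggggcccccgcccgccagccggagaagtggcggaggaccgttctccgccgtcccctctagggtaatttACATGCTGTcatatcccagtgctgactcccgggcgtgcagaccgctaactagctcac
TXNIP: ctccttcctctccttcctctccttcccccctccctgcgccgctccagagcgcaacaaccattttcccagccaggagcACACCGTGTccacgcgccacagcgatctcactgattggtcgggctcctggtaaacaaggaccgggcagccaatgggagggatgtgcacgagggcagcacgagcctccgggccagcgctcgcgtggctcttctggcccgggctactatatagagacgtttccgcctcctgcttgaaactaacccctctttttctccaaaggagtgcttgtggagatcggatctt
The match starts 208 bases before the start of KCNA5, 173 before that of TXNIP and 7 before that of TSC22D3. A single annotated start was searched for each gene, and whether the transcripts measured, GILZ included, begin there was not tested. Among promoters in the table the letters stood in 5.77% of 520 genes called higher, in 1.56% of 834 called lower, in 2.62% of 8655 genes tested and in 5.45% of all 27305 promoters. A match is a run of letters and not evidence of binding. Of the 15 rises, FAM90A1, PHACTR3 and HTRA4 were not in the table.

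The largest falls included IER3, HBEGF, ZNF503 and CCL2. IER3, an immediate early gene that acts on cell survival, ran from 11.12, 11.99 and 12.43 at 0 h to 7.84, 8.70 and 9.25 at 2 h. It fell by 3.34 (SE 0.09, adjusted p = 3.04e-12), to a level 10.1-fold lower, with no overlap of the arrays. HBEGF, a ligand of the EGF receptor, had 10.90, 11.58 and 12.13 at 0 h and 7.56, 8.19 and 10.24 at 2 h, with 1 NI array at 2 h well above the other 7. Its difference was -3.09 ± 0.18 (adjusted p = 1.72e-08), 8.53-fold lower. ZNF503, a zinc finger repressor of transcription, lay between 10.09 and 11.21 at 0 h and between 7.85 and 8.20 at 2 h, a fall of 2.67 (SE 0.11, adjusted p = 1.78e-10).

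CCL2, the monocyte attractant MCP-1, had 9.73, 11.76 and 12.67 at 0 h and 6.59, 8.74 and 11.63 at 2 h. The arrays overlapped, and the difference was -2.65 ± 0.38 (adjusted p = 0.000236). CXCL8, interleukin-8, a neutrophil attractant, also overlapped, with 6.71, 10.11 and 11.27 and then 5.66, 7.65 and 9.79 and a difference of -2.08 ± 0.34 (adjusted p = 0.000768). With the slide block the difference was -1.80 for CCL2 and -1.66 for CXCL8, and neither was called (adjusted p = 0.0885 and 0.221). Within slide 3 alone, the differences were 0.0002 and 0.15.

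LIF and IL11 are cytokines of the interleukin-6 family, and PIM1 is a kinase induced by such cytokines. LIF had 8.13, 8.55 and 9.57 at 0 h and 5.65, 6.21 and 7.16 at 2 h, with 5 of 8 treated arrays above background, and fell by 2.36 (adjusted p = 4.29e-10). IL11 had 7.39, 7.84 and 9.43 and then 4.86, 5.35 and 7.00, with 2 treated arrays above background, and fell by 2.46 (adjusted p = 1.18e-06). PIM1 fell by 2.48 (adjusted p = 9.44e-09), from 9.03, 9.67 and 10.50 to 7.07, 7.19 and 7.52. None of the 3 genes had overlapping arrays, and all 3 were also called with the slide block.

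The remaining leading falls were of genes with varied roles. HES1, the Notch-linked repressor, fell by 2.02 (adjusted p = 9.44e-09), BCL3, a nuclear partner of NF-kappa-B, by 1.95 (2.02e-08) and KLF10, a TGF-beta-induced Krüppel-like factor, by 1.89 (2.69e-06). On these probes 5, 4 and 4 of the 8 treated arrays were above background. RIPOR2, an inhibitor of the small GTPase RhoA, fell by 2.02 (1.39e-07), and RAB7B, a GTPase of lysosomal traffic, by 1.86 (1.13e-05). On no treated array were 2 of the genes above background: the stress-linked kinase PLK2 was at least 2.64-fold lower at 2 h (means 7.47 and 5.59, adjusted p = 2.67e-08) and IER5L at least 1.74-fold lower (means 6.87 and 4.99, adjusted p = 3.75e-06).

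The leading falls CXCL8 and IL11 carry the AP-1 letters TGANTCA in the same window, and their promoters are printed as the counterpart of the 3 above. Capitals mark TGANTCA and, in CXCL8, also the TATA box letters TATAAA. CXCL8 lies at chr4:73740319-73740618, plus strand and IL11 at chr19:55370414-55370713, minus strand.
CXCL8: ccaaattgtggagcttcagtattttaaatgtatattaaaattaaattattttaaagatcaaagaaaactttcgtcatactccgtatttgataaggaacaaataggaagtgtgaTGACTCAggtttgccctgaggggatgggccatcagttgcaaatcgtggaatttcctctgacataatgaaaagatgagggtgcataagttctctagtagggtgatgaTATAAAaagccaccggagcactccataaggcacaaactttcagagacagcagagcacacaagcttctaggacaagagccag
IL11: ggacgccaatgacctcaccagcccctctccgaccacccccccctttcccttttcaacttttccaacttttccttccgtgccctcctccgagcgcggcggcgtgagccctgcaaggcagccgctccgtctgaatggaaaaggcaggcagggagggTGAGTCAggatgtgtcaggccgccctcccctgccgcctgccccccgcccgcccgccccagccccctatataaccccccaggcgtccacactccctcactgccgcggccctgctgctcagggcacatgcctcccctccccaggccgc
The AP-1 letters start 137 bases before the start of CXCL8 and 96 before that of IL11. They also stood before F3 and SPINK13, both of which rose. Among genes in the table TGANTCA stood in 6.12% of those called lower, 5.19% of those called higher and 4.37% of those tested. CCL2, IER3, KLF10 and LIF were not in the table.

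Known glucocorticoid-induced genes were measured as a list of 45, of which 39 passed the filter. Of these 28 were higher and 1 lower, 74.4% against 16% of all genes, and 24 of the 29 were also called with the slide block. The list had a median difference of 0.71, against -0.008 over all genes. The list was drawn from general knowledge of glucocorticoid targets, with earlier results of these data known.

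Feedback inhibitors of inflammatory signalling made up one set of its rises. NFKBIA, which holds NF-kappa-B in the cytoplasm, had 10.91, 11.17 and 11.44 at 0 h and 13.00, 13.21 and 13.56 at 2 h, with the 2 groups far apart. It rose by 2.09 ± 0.09 (adjusted p = 9.32e-10), 4.25-fold. ZFP36, which marks AU-rich cytokine transcripts for decay, ran from 8.51, 8.91 and 9.22 to 10.32, 10.95 and 11.48 and rose by 2.05 ± 0.09 (adjusted p = 4.80e-10). TNFAIP3, the ubiquitin-editing enzyme A20, rose by 1.72 ± 0.15 (adjusted p = 2.27e-06). DUSP1, a phosphatase of p38 and JNK, changed far less: 10.88, 11.17 and 11.72 at 0 h and 11.20, 11.75 and 12.12 at 2 h overlapped, the difference was 0.45 ± 0.12 (adjusted p = 0.0192), and it was not called with the slide block (adjusted p = 0.573).

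Kinases and transcription factors made up another. SGK1, the serum- and glucocorticoid-regulated kinase, rose by 1.74 ± 0.09 (adjusted p = 3.71e-09), from 10.09, 10.81 and 10.90 to 12.13, 12.47 and 12.71, on each of its 3 kept probes (1.70 to 1.83). BCL6, a transcriptional repressor, rose by 1.85 ± 0.10, and the transcription factors CEBPD, FOXO1 and FOXO3 by 0.93, 1.05 and 0.71. KLF15, a metabolic transcription factor, was below background on all untreated arrays and at least 1.99-fold higher (means 5.04 and 7.08, adjusted p = 2.64e-06). ZBTB16, another repressor, was above background on no array at 0 h and 4 at 2 h, at least 1.03-fold higher (means 5.49 and 6.13, adjusted p = 0.00818). FAM107A was also above background on 4 treated arrays alone, with means of 4.85 and 5.87 that allow no fold. KLF9, another Krüppel-like factor, rose by 0.51 and was not called with the slide block (adjusted p = 0.481).

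Other well-known targets changed by less than the leading genes. FKBP5, a co-chaperone that lowers the hormone affinity of the receptor, had 10.27, 10.65 and 11.00 at 0 h and 10.94, 11.21 and 11.48 at 2 h and rose by 0.53 ± 0.07 (adjusted p = 0.000184). SCNN1A, a subunit of the epithelial sodium channel, rose by 0.61, CRISPLD2, a secreted protein, by 1.82, ALOX5AP, which presents arachidonate to 5-lipoxygenase, by 0.92, and ERRFI1, an inhibitor of the EGF receptor, by 0.69. The regulatory subunit PIK3R1 and the cell cycle inhibitor CDKN1C rose by 0.85 and 1.02, and LCN2, an iron-binding protein, by 0.37. LCN2 and the metallothionein MT1X (0.28) were not called with the slide block, and MT1X lost its call when any of 11 single arrays was left out. PER1 is given with the clock genes below.

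The 10 other listed genes were not called. Their differences were 0.35 for CPEB4, 0.23 for SLC19A2, 0.22 for DDIT4, 0.18 for CEBPB, 0.15 for MAOA, 0.08 for SNAI2, 0.08 for ANXA1, 0.03 for ADARB1, -0.03 for MT2A and -0.38 for ANGPTL4. GADD45B, a stress-induced growth arrest protein, was the 1 listed gene that fell, by 1.43 (adjusted p = 1.13e-06), from 9.71, 9.97 and 10.57 to 7.94, 8.61 and 9.35 with no overlap.

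**Figure D2:**
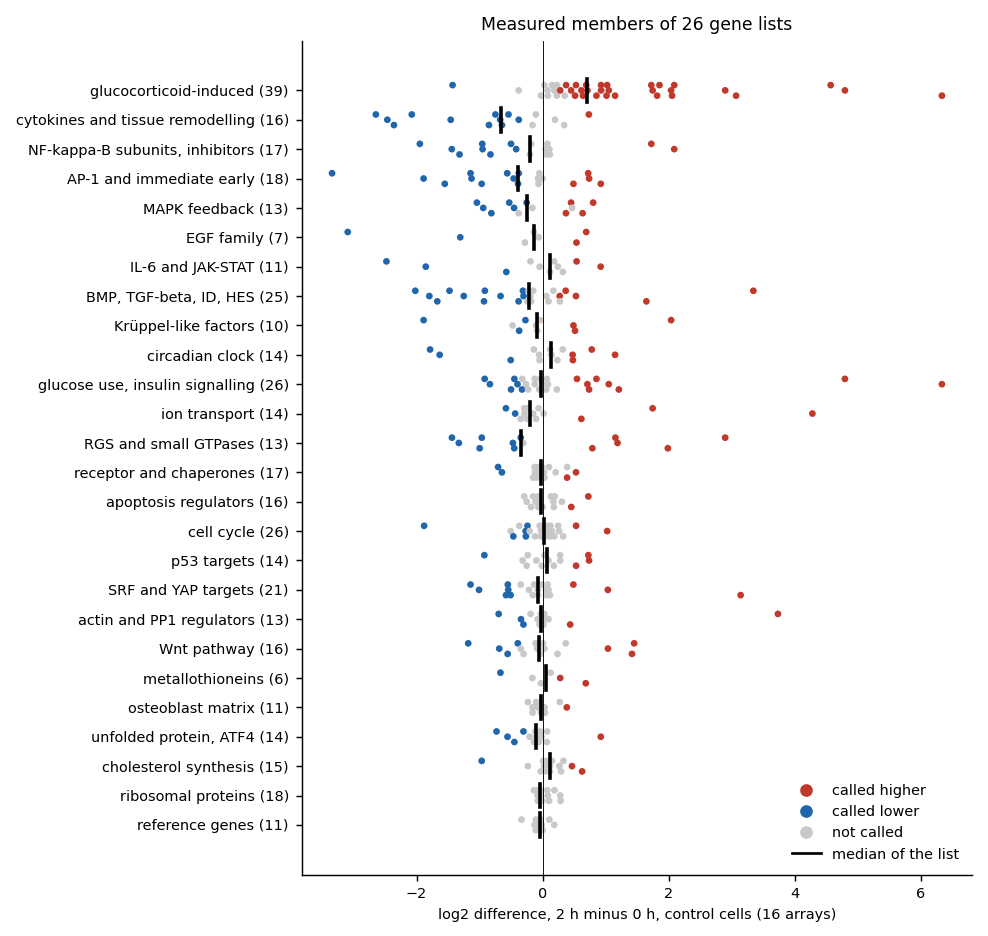
Log2 difference, 2 h minus 0 h, in control cells (horizontal axis) of each measured member of 26 gene lists, the number measured in brackets. Points are genes, red where called higher, blue where called lower and grey where not called, and the black line is the list's median. The median was 0.71 for glucocorticoid-induced genes and -0.66 for cytokine and tissue-remodelling genes. Lists were chosen with earlier results of these data known, so they are not ranked.

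Most measured cytokine and tissue-remodelling genes were lower. Of 34 listed, 16 were measured, and 11 were lower and 1 higher (75% against 16% of all genes), with a median of -0.66. This list and those below were chosen with earlier results of these data known, so their shares are descriptions and not tests. Beside CCL2, CXCL8, LIF and IL11, the urokinase gene PLAU fell by 1.46 (adjusted p = 1.01e-05), the chemokine CCL20 by 0.85 (0.000595), the interleukin-7 receptor IL7R by 0.75 (0.000472) and the TWEAK receptor TNFRSF12A by 0.65 (3.78e-05). Falls were also called for IL32 (-0.67), the matrix protease MMP3 (-0.54) and the matrix protein TNC (-0.38). PTGS2, cyclooxygenase-2, was the 1 member that rose, by 0.73 ± 0.22 (adjusted p = 0.0405). Its arrays overlapped, 5.76, 6.55 and 7.07 at 0 h and 6.03, 7.18 and 8.07 at 2 h, and 5 of 8 untreated arrays were above background. PLAUR (0.34), TNFSF15 (0.20), TNFRSF21 (-0.11) and TNFRSF11B (-0.16) were not called. With the slide block the calls were IL11, LIF, PLAU and TNFRSF12A, 4 of the 12, and all 12 differences had the same sign. Leaving out single arrays ended the calls of PTGS2 (11 arrays), TNC (7), IL32 (6) and MMP3 (2).

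NF-kappa-B genes moved both ways. Of 17 measured, 2 inhibitors, NFKBIA and TNFAIP3, were higher and 8 genes lower (58.8% against 16% of all genes). Of these 10, 7 were also called with the slide block. NFKBIE, a further inhibitor, fell by 1.32 (adjusted p = 5.88e-07), so inhibitors did not all rise. The subunits RELB and NFKB1 fell by 1.44 (0.000318) and 0.96 (5.12e-05), and BCL3 fell as given above. RELB was not called with the slide block (adjusted p = 0.159) and was 0.60 within slide 3, where its single treated array was the higher.

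Genes of the AP-1 and immediate early group moved both ways, with 10 of 18 lower and 4 higher (77.8% against 16% of all genes). The median of the group was -0.39. JUNB, an AP-1 subunit, fell by 1.55 (adjusted p = 2.18e-05), from 6.37, 7.27 and 8.02 to 5.10, 5.57 and 6.80, with 2 treated arrays above background. CCN1, a matrix protein of the immediate early class, fell by 1.14 (adjusted p = 5.29e-06), beside IER3 and KLF10. The 4 that rose, ATF3 (0.92), EGR1 (0.74), FOS (0.72) and KLF6 (0.49), were none of them called with the slide block (adjusted p = 0.195, 0.381, 0.407 and 0.285). Of the 14 calls 7 held there.

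Among 13 measured genes of MAP kinase signalling and its feedback, 4 were higher and 6 lower (76.9% against 16% of all genes). DUSP5, a nuclear phosphatase of ERK, rose by 0.80 ± 0.09 (adjusted p = 1.49e-05), and SPRY2, an inhibitor of receptor tyrosine kinase signalling, by 0.63. MAP3K6, a stress-activated kinase, rose by 0.37. Falls were called for MAP3K14, the kinase of the non-canonical NF-kappa-B path (-1.04), the phosphatases DUSP14 (-0.94) and DUSP7 (-0.53), and SPRED2 (-0.81), which acts on the RAS path. DUSP5, DUSP14 and SPRED2 were the 3 also called with the slide block.

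In the EGF family and its inhibitors, 2 of 7 were lower and 2 higher (57.1% against 16% of all genes). The ligands HBEGF and NRG1 fell, NRG1 by 1.31 (adjusted p = 7.00e-05) with 3 treated arrays above background. The inhibitors ERRFI1 and LRIG1 rose, by 0.69 (adjusted p = 9.50e-05) and 0.54 (0.00392). LRIG1 was not called with the slide block (adjusted p = 0.204).

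Genes of interleukin-6 and JAK-STAT signalling gave 3 falls and 2 rises among 11 (45.5% against 16% of all genes). SOCS3, an inhibitor of this path, was above background on all untreated arrays and on no treated one and was at least 2.35-fold lower (means 7.30 and 5.45, adjusted p = 2.34e-07). The receptor OSMR fell by 0.58 (adjusted p = 0.00545). SOCS1 and SOCS2, of the same inhibitor family, rose by 0.92 (0.000201) and 0.54 (0.00744). Only PIM1 and SOCS3 of these 5 were called with the slide block.

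BMP, TGF-beta, ID and HES genes gave falls and rises. Of 25 measured, 11 were lower and 5 higher (64% against 16% of all genes). Of these 16 calls, 10 were also made with the slide block. ID1 and ID3, BMP-induced inhibitors of basic helix-loop-helix factors, fell by 1.80 (adjusted p = 1.94e-07) and 1.48 (8.45e-07). ID1 had 10.83, 11.45 and 12.03 at 0 h and 8.82, 9.50 and 10.57 at 2 h, with no overlap, whereas the arrays of ID3 overlapped. SMAD7, the inhibitory SMAD, fell by 1.67 (3.83e-07), from 7.69, 8.16 and 8.43 to 5.84, 6.45 and 6.91. On the rising side, MSX2 was followed by TGFBR3, the co-receptor betaglycan, at 1.64 ± 0.10 (adjusted p = 2.64e-08), and by the corepressor TGIF1 (0.53) and the Notch ligand JAG1 (0.36), which were not called with the slide block (adjusted p = 0.0579 and 0.449). JAG1 lost its call when any of 12 single arrays was left out.

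Clock genes gave 4 rises and 3 falls among 14 (50% against 16% of all genes). PER1, a core repressor of the clock, was above background on no array at 0 h and on 7 at 2 h, at least 1.42-fold higher (means 5.44 and 6.59, adjusted p = 0.00181). BHLHE40 and BHLHE41, repressors of clock output, fell by 1.79 (adjusted p = 1.08e-06) and 1.63 (0.000145), the first from 11.25, 11.86 and 12.11 to 9.01, 10.02 and 10.91. NFIL3, a repressor of clock output, rose by 0.78 ± 0.09 (3.90e-05). CRY2 (0.48), DBP (0.47) and BMAL1 (-0.51) were called too, but with the slide block the calls were BHLHE40 and NFIL3 alone, with PER1 at an adjusted p of 0.121.

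Among 26 genes of glucose use and insulin signalling, 8 were higher and 6 lower (53.8% against 16% of all genes). Of these 14, 9 were also called with the slide block. Beside PDK4 and TXNIP, the glucose transporter gene SLC2A3 rose by 1.21 ± 0.08 (adjusted p = 1.11e-07), from 10.39, 10.71 and 11.01 to 11.38, 11.91 and 12.27. IRS1, the docking protein of the insulin receptor, fell by 0.84 (1.38e-05), and the pseudokinases TRIB1 and TRIB3 by 0.92 (0.000146) and 0.45 (0.000703). GRB10, an adaptor that inhibits the insulin receptor, fell by 0.50. TRIB3 and GRB10 were not called with the slide block (adjusted p = 0.178 and 0.42).

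Of 13 measured regulators of G proteins and small GTPases, 12 were called, 5 higher and 7 lower (92.3% against 16% of all genes). The list was chosen with earlier results of these data known, so its share is not ranked against others. RHOB, RGS19 and RHOU rose by 1.99 ± 0.17, 1.19 ± 0.12 and 1.15 ± 0.11 (adjusted p = 1.29e-06, 1.10e-05 and 4.50e-06), each with no overlap between the times. GEM, a GTPase that inhibits calcium channels, was above background on no treated array and at least 2.02-fold lower (means 7.09 and 5.76, adjusted p = 1.03e-06). RGS4, DLC1 and RASD2 fell by 1.44, 1.00 and 0.97 (adjusted p = 0.000633, 0.00404 and 0.000254). These 3 were not called with the slide block, where 5 of the 12 calls held (adjusted p = 0.0944, 0.222 and 0.0605).

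Wnt pathway genes gave 3 rises and 4 falls among 16 (43.8% against 16% of all genes), of which 4 were also called with the slide block. WNT5A, a non-canonical ligand, NKD1, an inhibitor, and FZD4, a receptor, rose by 1.45 ± 0.18, 1.42 ± 0.16 and 1.04 ± 0.09 (adjusted p = 7.24e-05, 2.76e-05 and 9.90e-07). NKD1 was above background on 1 untreated and 7 treated arrays. AXIN2, the feedback inhibitor that marks canonical Wnt activity, fell by 1.18 (adjusted p = 1.32e-05), from 8.22, 9.02 and 9.41 to 7.57, 7.77 and 8.12 with no overlap. LEF1 (-0.69), WNT5B (-0.56) and ZNRF3 (-0.39) were not called with the slide block.

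SRF and YAP targets gave 6 falls and 3 rises among 21 (42.9% against 16% of all genes). THBS1, thrombospondin 1, and EDN1, endothelin 1, fell by 1.01 (adjusted p = 2.44e-05) and 0.58 (0.0157), and TAGLN, a contractile protein, by 0.55 (0.00141). ANKRD1 and CCN2 rose by 1.03 and 0.49, beside F3. Of the 9, 4 were also called with the slide block, and TAGLN, ANKRD1 and CCN2 were not (adjusted p = 0.271, 0.199 and 0.412).

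Lists on growth and stress had 12.5 to 35.7% of their genes called, against the 16% of all genes. The apoptosis regulators (12.5%) lay below that share, and the cell cycle, p53 and ATF4 lists above it. Of 26 cell cycle genes 2 were higher, the inhibitors CDKN1A (0.53) and CDKN1C, and 5 lower, among them CCND1 (-0.27), CCND3 (-0.27) and CDC25A (-0.47), none of which was called with the slide block, where 3 of the 7 were. Of 14 p53 targets SESN1 (0.74), CDKN1A and PMAIP1 (0.72) were higher and SERTAD1 (-0.93) lower, and 3 of the 4 were also called with the slide block. PMAIP1 and BCL2L11 (0.45), both pro-apoptotic, were the 2 of 16 apoptosis regulators called, and neither was with the slide block. In the list of 14 unfolded protein and ATF4 genes, HSPA5 (-0.56), DDIT3 (-0.73), PPP1R15A (-0.31) and TRIB3 were lower and ATF3 higher, with 0 of the 5 called with the slide block.

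Of 15 cholesterol genes, MYLIP, which degrades the LDL receptor, fell by 0.97 (adjusted p = 1.67e-07), from 9.24, 9.63 and 9.90 to 8.29, 8.56 and 9.03 with no overlap, and CYP51A1 (0.63) and IDI1 (0.46) were higher but not so with the slide block. Among 14 ion transport genes KCNK6 (-0.44, with kept probes that disagreed in sign) and KCNN4 (-0.58) were lower, and KCNA5, SGK1 and SCNN1A were the 3 of 5 also called with the slide block. Metallothionein genes gave 2 rises, MT1G (0.68) and MT1X, and a fall of the zinc exporter SLC30A1 by 0.67 (adjusted p = 6.35e-06), the 1 of the 3 called with the slide block. Of 13 actin and protein phosphatase 1 regulators, LIMK2 (0.44) was higher and CORO2A (-0.34) and PPP1R3C (-0.70) lower beside PPP1R15A, and PHACTR3 alone was also called with the slide block. Among 10 Krüppel-like factors, KLF12 (-0.27) and KLF13 (-0.37) were lower beside KLF10, and KLF10 and KLF15 were the calls that held. The shares called were 20% of the cholesterol, 35.7% of the ion transport and 50% of the metallothionein list. They were 38.5% of the actin and 60% of the Krüppel-like list, against 16% of all genes. None of 18 ribosomal protein genes and none of 11 reference genes was called in the limma fit. RUNX2 (0.38) was the 1 of 11 osteoblast genes called, and CD44 (-0.59) fell among the mesenchymal markers, neither of them with the slide block.

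The human NR3C1 probe fell by 0.71 (adjusted p = 0.000715), from 6.60, 6.93 and 7.16 with all 8 arrays above background to 5.77, 6.13 and 6.83 with 4. How far a human probe reads the introduced rat transcript was not tested. Of 17 genes in this list, DNAJB1, a co-chaperone of HSP70, fell by 0.65 (adjusted p = 1.54e-05), FKBP5 rose as above and PTGES3, the HSP90 co-chaperone p23, rose by 0.39, a call that ended when any of 13 single arrays was left out. These 4 with NR3C1 counted are 23.5% of the list, against 16% of all genes. With the slide block 3 of these 4 were called, all but PTGES3. TGFB1I1, the Hic-5 gene, had 9.22, 9.48 and 9.84 at 0 h and 8.62, 9.37 and 9.97 at 2 h, and its difference of -0.21 ± 0.11 was not called (adjusted p = 0.215).

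Both kinds of control are read together above, so the response was also compared between them. No probe (0%) was called for a difference between the siNS and the NI response in limma, with 1008 probes and 496 genes at an unadjusted p under 0.05. Taken alone, the 8 NI arrays gave 466 called genes (4.36%) and the 8 siNS arrays 696 (6.51%), with 354 in both, 76.0% of the first list and 50.9% of the second. The 354 had the same sign. These responses share no array, but 2 of the 4 NI arrays and 3 of the 4 siNS arrays at 2 h lay on slide 5, so they share that slide on the treated side. Over all genes tested the differences in NI and siNS had a Pearson correlation of 0.83. Over the 1708 called genes it was 0.97, but these genes were selected on both responses. Both values are descriptions across genes measured on the same arrays. TIPARP differed by 4.38 in NI and 4.75 in siNS, IER3 by -3.34 and -3.34, and CCL2 by -2.25 and -3.04.

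**Figure D3:**
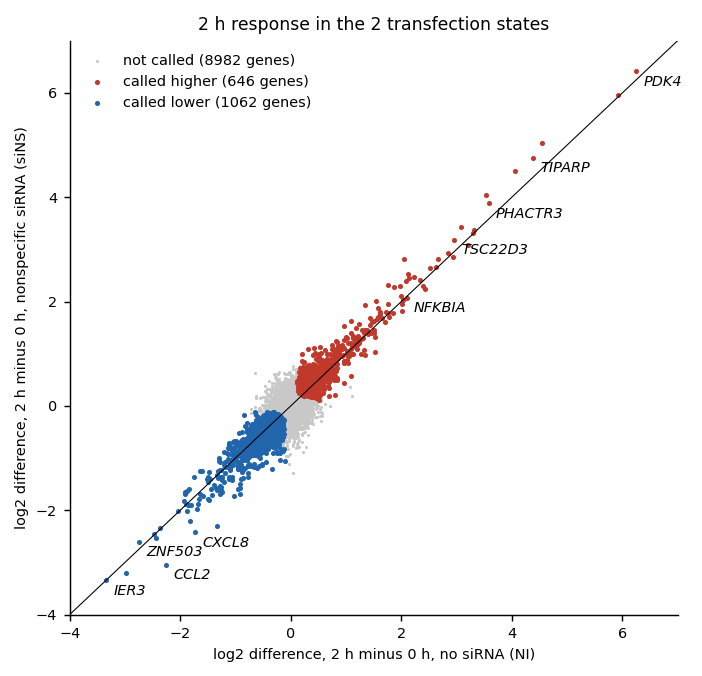
Log2 difference, 2 h minus 0 h, in cells with no siRNA (horizontal axis) and with nonspecific siRNA (vertical axis). Each point is 1 of 10690 genes, coloured by its call over the 16 arrays, and the line marks equal responses. All 646 genes called higher and 1062 called lower lie where both responses share the sign, which calling on these same arrays largely fixes. PDK4, at the top right, is below background at 0 h.

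Genes that changed at 2 h differed in their later levels. Slide 5 held 5 of the 8 arrays at 2 h, no control array at 0 h or 4 h, and NI replicate 4 at 24 h. Time and slide thus overlap in part, and a peak or low at 2 h alone was not tested apart from slide. The 4 h and 24 h differences share the 0 h arrays with the 2 h difference, so levels in control cells are given side by side with no test (mean ± SD of 8 arrays at each time), for genes picked after their values were seen. NFKBIA reached its level early, with 11.17 ± 0.19 at 0 h, 13.26 ± 0.16 at 2 h, 13.18 ± 0.08 at 4 h and 13.32 ± 0.13 at 24 h. TSC22D3 was higher at each later time, with 7.70 ± 0.29, 10.77 ± 0.19, 11.14 ± 0.15 and 12.15 ± 0.15. The level at 2 h was thus close to that at 24 h for NFKBIA and below it for TSC22D3.

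Some genes stood far higher at 24 h than at 2 h. SPINK13 had 5.05 ± 0.12 at 0 h, 8.84 ± 0.86 at 2 h, 11.03 ± 0.50 at 4 h and 13.23 ± 0.19 at 24 h. FAM107A, which allowed no fold at 2 h, had 4.85 ± 0.26, 5.87 ± 0.52, 7.84 ± 0.48 and 11.41 ± 0.21. Relative to 0 h, FKBP5 stood at 0.53, 1.38 and 2.65 log2 units at 2, 4 and 24 h, NKD1 at 1.42, 2.51 and 5.38, and ALOX5AP at 0.92, 1.40 and 4.09.

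Other genes that rose were highest at 2 h or 4 h. TNFAIP3 had 6.81 ± 0.36 at 0 h, 8.53 ± 0.55 at 2 h, 7.41 ± 0.62 at 4 h and 6.90 ± 0.46 at 24 h, back near its untreated level. DUSP5 had 9.07 ± 0.48, 9.87 ± 0.37, 8.92 ± 0.51 and 6.54 ± 0.29, so its 24 h level lay below the untreated one. FAM90A1 and HTRA4, at 10.79 ± 0.31 and 8.39 ± 0.30 at 2 h, stood at 8.30 ± 0.53 and 6.70 ± 0.49 at 24 h. RHOU was 1.15, 1.64 and 0.11 above its 0 h level at the 3 times.

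Among the falls, IER3 and CCL2 were lower at each later time, IER3 with 11.92 ± 0.45, 8.57 ± 0.50, 7.90 ± 0.35 and 7.46 ± 0.33 and CCL2 with 11.44 ± 1.23, 8.79 ± 1.41, 7.01 ± 0.99 and 5.11 ± 0.37. ID3 and AXIN2 were lowest at 2 h, ID3 with 10.59 ± 0.47, 9.11 ± 0.78, 10.56 ± 0.30 and 9.71 ± 0.28 and AXIN2 with 8.99 ± 0.40, 7.80 ± 0.16, 8.71 ± 0.33 and 8.85 ± 0.33. SMAD7 was low at 2 h and 4 h, 8.13 ± 0.25, 6.45 ± 0.40 and 6.60 ± 0.39, and 7.95 ± 0.36 at 24 h. By 4 h ID3 and AXIN2 stood near their untreated levels while hormone was still present.

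RIPOR2 and MYLIP stood above their untreated levels at 24 h, and IRS1 was lowest at 4 h. RIPOR2 had 8.83 ± 0.28 at 0 h, 6.82 ± 0.66 at 2 h, 7.64 ± 0.45 at 4 h and 11.47 ± 0.28 at 24 h. MYLIP had 9.59 ± 0.22, 8.62 ± 0.25, 8.94 ± 0.17 and 10.50 ± 0.13. IRS1 had 9.30 ± 0.22, 8.47 ± 0.35, 6.28 ± 0.42 and 7.94 ± 0.26.

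**Figure D4:**
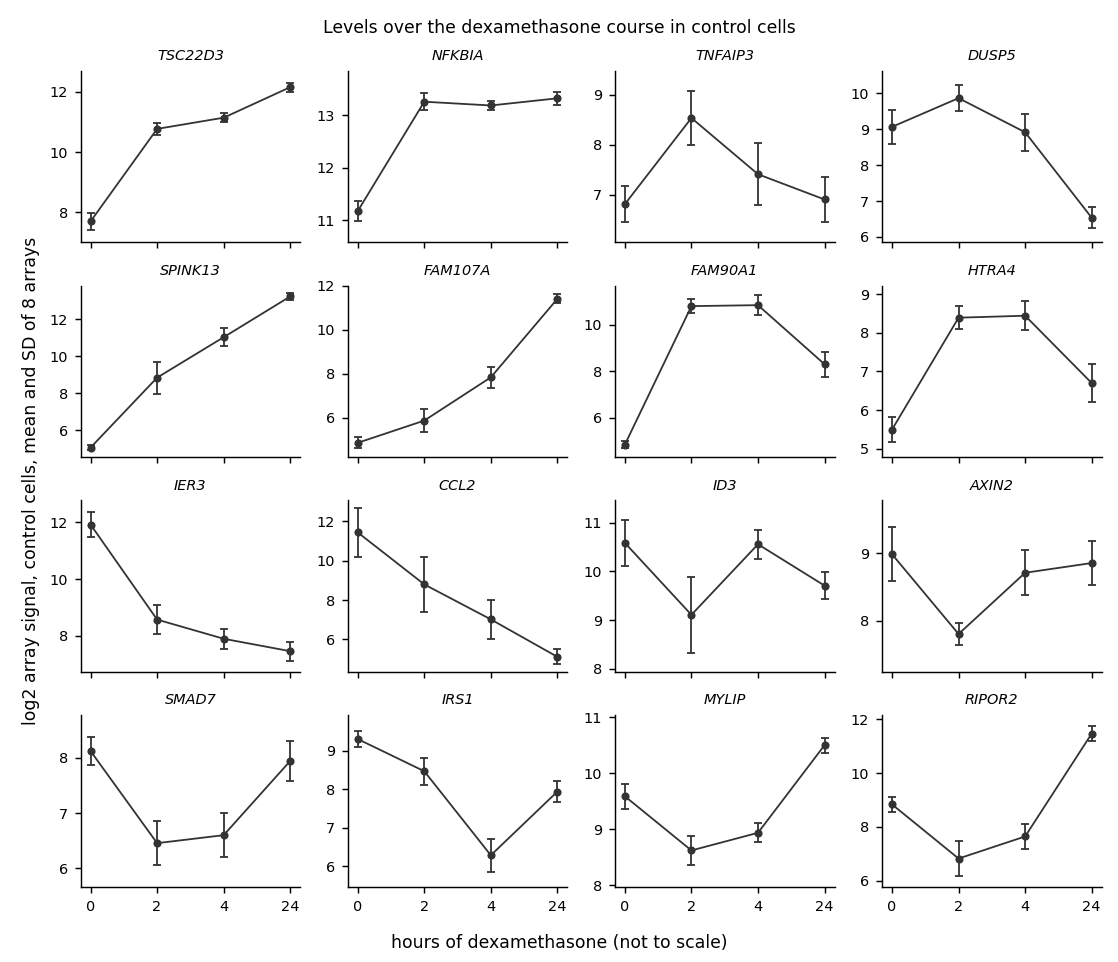
Log2 array signal (vertical axis, own scale for each gene) at 0, 2, 4 and 24 h of dexamethasone (horizontal axis, not to scale) for 16 genes in control cells. Points are means and bars the SD of 8 arrays at each time. TNFAIP3 is highest at 2 h, ID3 and AXIN2 are lowest at 2 h, and RIPOR2 falls at 2 h and is highest at 24 h. Of the 8 arrays at 2 h, 5 lay on slide 5, and a peak or low at 2 h alone was not tested apart from slide.

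The response of Hic-5-depleted cells was set against this one. On the probe used, TGFB1I1 had means of 9.51 and 9.48 in NI and siNS at 0 h and 6.19 with siHic5_2. The difference of the responses (siHic5_2 minus the mean of NI and siNS, 24 arrays) was called for 25 genes (0.234%), 22 with a lower (0.206%) and 3 with a higher response (0.0281%) in the depleted cells. Of the 25, 21 were called in control cells, 17 as rises and 4 as falls, and 15 of the 17 rises were lower with siHic5_2. These responses share no array.

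Several known hormone targets were on the list. PHACTR3 rose by 3.73 in control cells and by 1.04 with siHic5_2, a difference of -2.69 ± 0.32 (adjusted p = 0.000245). TSC22D3 rose by 3.07 and 1.34, a difference of -1.73 ± 0.20 (adjusted p = 0.000204). DUSP1 rose by 0.45 in control cells and fell by 1.28 with siHic5_2 (-1.73 ± 0.18, adjusted p = 7.29e-05). RHOB rose by 1.99 in control cells, and its difference was -0.01 with siHic5_2 (-1.99 ± 0.33, adjusted p = 0.00842). A lower response than in control cells was also called for F3 (-1.79 ± 0.31), MSX2 (-1.65 ± 0.25), BCL6 (-1.09 ± 0.19) and NFKBIA (-0.94 ± 0.16), and for SLC46A3, TENT5A, FOXA2, TMEM100 and EDN2. PDK4 and KRTAP13-2 were called as well, but were above background on no control array at 0 h, so their fitted differences are not sizes. MSX2 was above background on 1 of the 8 control arrays at 0 h and on 4 with siHic5_2, so its size is uncertain. SNAI2 and DDIT4, not called in control cells, fell with siHic5_2, DDIT4 by 2.08. EDN1 and TRIB1, falls in control cells, fell further with siHic5_2 (-2.52 and -2.21). Their differences of the responses were -1.94 ± 0.25 and -1.29 ± 0.21. The remaining calls were TRAF1, above background on no control array at 2 h, SNAP25 and ARRDC2.

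Levels at 0 h differed as well. Of the 22 genes with a lower response, 20 had a higher mean at 0 h with siHic5_2 than in control cells and 19 a lower mean at 2 h, and the 0 h level enters the response itself. TSC22D3 had 7.70 ± 0.29 at 0 h in control cells and 9.32 ± 0.34 with siHic5_2, and 10.77 ± 0.19 and 10.66 ± 0.17 at 2 h. The corresponding means of NFKBIA were 11.17 ± 0.19 and 12.16 ± 0.09 at 0 h, and 13.26 ± 0.16 and 13.31 ± 0.15 at 2 h. For these 2 genes the groups lay apart before hormone and close together after it. DDIT4 had 9.85 ± 0.47 and 11.38 ± 0.42 at 0 h, and 10.08 ± 0.81 and 9.30 ± 0.42 at 2 h. SHISA2, with a larger response in depleted cells (1.31 ± 0.25, adjusted p = 0.0239), had 8.47 ± 0.24 and 7.18 ± 0.18 at 0 h, and 10.23 ± 0.45 and 10.25 ± 0.18 at 2 h. The other 2 with a higher response were TMEM43 (1.10 ± 0.17) and BCL11A (1.03 ± 0.19).

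**Figure D5:**
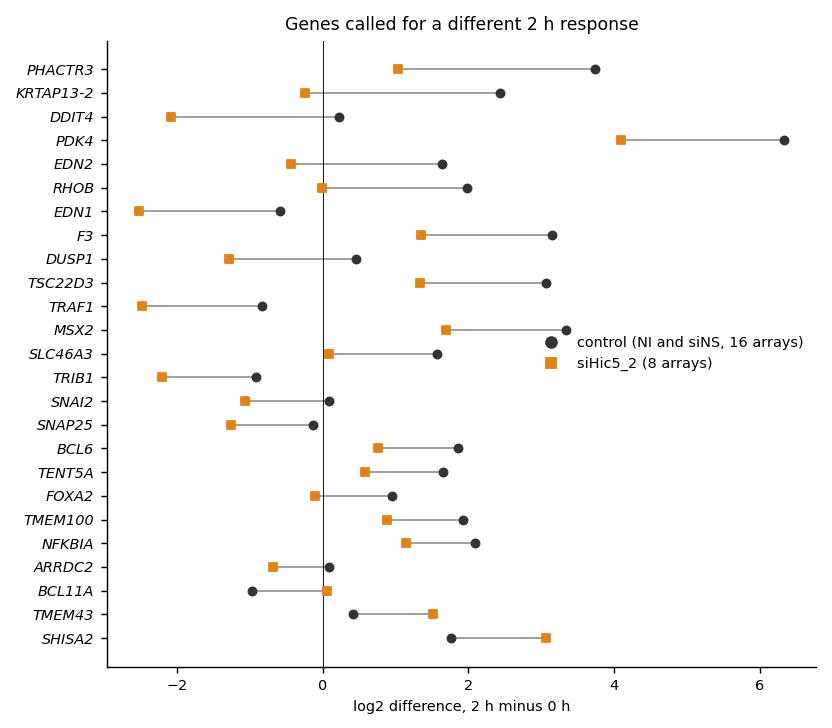
Log2 difference, 2 h minus 0 h (horizontal axis), of the 25 genes called for a different response, in control cells (circles, 16 arrays) and with siHic5_2 (squares, 8 arrays), ordered by the difference of the responses. The square lies to the left of the circle for 22 genes and to the right for BCL11A, TMEM43 and SHISA2.

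With slide as a block beside the replicate number 14 of the 25 genes were called, and with all 48 arrays and the slide block 23. Without the arrays of slide 5, which leaves 3 control arrays and 3 siHic5_2 arrays at 2 h, 1 of the 25, DUSP1, was called. All 25 kept the sign in each of these settings, which reuse arrays that made the calls. Without slide 5 the difference was -2.60 for PHACTR3 and -1.70 for TSC22D3, with adjusted p of 0.0634 for both, and -1.72 for EDN2 (adjusted p = 0.197). With the slide block it was -2.11 for EDN2 (adjusted p = 0.171), -1.09 for BCL6 (0.0738) and 1.30 for SHISA2 (0.0865), against -2.08, -1.09 and 1.31. The 11 not called with the slide block were EDN2, TRAF1, SLC46A3, TRIB1, SNAI2, SNAP25, BCL6, TMEM100, ARRDC2, BCL11A and SHISA2.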

How the data were processed

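RNA of 48 U2OS samples was hybridised to Illumina HT-12 v4 arrays, and the 16 control samples at 0 h and 2 h carry the comparison. The deposited raw table holds raw bead intensity per the file headers, with detection p-values, for 47323 probes and 770 negative-control rows. The authors' processed table of the same arrays holds log2 values. Its normalization was not given in the sources used here, and its values differed from those of limma's neqc by at most 0.263. The submitters' processing notes name R 2.15.3 and limma 3.14.4. The deposited p-values stood under other arrays' names: 32 of 48 arrays matched the p column of another array and 0 their own. Detection p was therefore recomputed from the negative-control rows.

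Probes with a recomputed detection p under 0.01 on at least 4 of the 16 arrays were kept, 17794 in all. The authors' log2 values were fitted with limma 3.58.1 in R 4.3.3 (time, transfection state and replicate number, 10 residual degrees of freedom, Benjamini-Hochberg over all kept probes, two-sided). A gene is its kept probe with the highest mean; of 408 called genes with several kept probes, 55 had probes that differed in sign. For a gene above background on no array of a group, "at least" folds set the measured mean of the bright group against the higher, on each array, of the lowest signal well above background and the gene's own. The number of arrays limits the precision, and the median SE was 0.0924 on the log2 scale. The fit was tested on simulated data.

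Replicate numbers, from the labels, were kept as a block because same-numbered arrays deviated together in all 24 pairs (correlation 0.271 to 0.803). Other pairs had -0.584 to 0.348, so the ranges overlapped. Deviations were taken from the mean of each group of 4, which by itself lowers the values of other pairs where same-numbered pairs correlate. Genes named are the 15 largest rises and falls in the same direction in all 8 pairs, every measured member of the glucocorticoid-induced and cytokine lists, up to 4 called genes each way in other lists, TGFB1I1, NR3C1 and the 8 largest response differences to siHic5_2 among these. Members and lists were chosen with earlier results of these data known. Promoter sequences are RefSeq's (GRCh38.p14). Alternatives changed the normalization, probe filter, blocks, slides and arrays used.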

Additional observations from a re-analysis of the deposited data

Results flagged for a closer look

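Single arrays stood far from the other 3 of their group in 30 of 592 groups of the 148 named genes called, 5.07%, where chance gives about 5%. Among the rising genes at 0 h, the arrays were siNS replicate 1 for FAM90A1 (5.14), FZD4 (7.42) and MT1G (9.35), siNS replicate 3 for TXNIP (6.35), NI replicate 1 for KLF15 (5.88), and NI replicate 2 for LIMK2 (7.03), SGK1 (10.09) and SPRY2 (8.03). At 2 h they were NI replicate 4 for ANKRD1 (9.30), siNS replicate 1 for BCL6 (11.25) and TNFAIP3 (9.57), NI replicate 3 for JAG1 (7.02) and WNT5A (7.23), siNS replicate 3 for LRIG1 (9.04), siNS replicate 2 for SGK1 (12.30) and NI replicate 1 for TGFBR3 (8.12). WNT5A had 8.41 to 8.54 in the other 3 arrays, and FAM90A1 4.79 to 4.84.

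Among the falling genes at 0 h, they were siNS replicate 2 for DUSP14 (11.29), NI replicate 4 for DUSP7 (5.95), NI replicate 1 for IRS1 (8.94) and OSMR (8.68), NI replicate 3 for LEF1 (8.98) and siNS replicate 4 for TAGLN (12.33). At 2 h they were NI replicate 2 for CCN1 (9.79) and DLC1 (5.68), NI replicate 1 for IL11 (7.00) and PLAU (9.81), siNS replicate 1 for KCNK6 (7.27), NI replicate 4 for PIM1 (7.52), and siNS replicate 2 for PLAU (7.82) and TNFRSF12A (11.54). IL11 had 5.07 to 5.38 and PLAU 7.89 to 8.22 in the other NI arrays, so both stood higher at 2 h in NI replicate 1, as HBEGF did. These are levels at 2 h and not differences from 0 h.

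The response with siHic5_2 differed from that of control cells by a contrast of the 24 arrays for 13 named genes. The log2 differences of the responses were -2.69 for PHACTR3, -2.31 for DDIT4, -1.99 for RHOB, -1.94 for EDN1, -1.79 for F3, -1.73 for both DUSP1 and TSC22D3, -1.65 for MSX2, -1.29 for TRIB1, -1.16 for SNAI2, -1.09 for BCL6 and -0.94 for NFKBIA. The fitted value for PDK4, -2.24, rests on a probe above background on none of the 8 untreated control arrays and is neither a size nor a bound. MSX2 was above background on 1 of these 8, so the size of its difference is uncertain.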

How the results depend on the processing

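Signal over background limits what could be tested: genes above background on only some arrays of a group have uncertain folds. Slide and time overlap in part: 406 of the 1708 genes were also called with the slide block, 184 of these at least 2-fold changed. Against 2627 probes called in control cells, 1129 were called with no replicate block, 295 with slide as a block in place of the replicate number, 696 with NI arrays only and 1088 with siNS arrays only. Chosen after seeing the data, slide as a block beside the replicate number gave 649, leaving out slide 5 gave 832 and all 48 arrays with slide gave 1212. Calls of at least 1.5-fold numbered 899 and of at least 2-fold 339. Counts stayed within 1.5 times of the main one with neqc (2581), median scaling (1821), no filter (1986), the strict filter (2240), slide as a random block (2242) and all 48 arrays (1879). Leaving out single arrays or replicate numbers gave 1674 to 2934, the lowest without replicate number 1.

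Of the genes named, 148 were called, and 133 kept the call whichever single array was left out. Without at least 1 replicate number 40 lost it, the 15 that single arrays could end and ANKRD1, BCL2L11, BMAL1, CCND1, CORO2A, CRY2, DUSP1, DUSP7, EDN1, EGR1, IDI1, KLF6, LCN2, LIMK2, MAP3K6, PMAIP1, PPP1R3C, RUNX2, SCNN1A, SESN1, SOCS2, SPRY2, TGIF1, WNT5B and ZBTB16. The count was 125 to 145 over arrays and numbers left out, 50 with slide in place of the number, 85 with slide beside it, 91 without slide 5 and 87 with NI only. The difference between the siNS and NI responses had 0 to 1 probe called, the 1 without siNS replicate 4 at 2 h or replicate 3 at 0 h. That between siHic5_2 and control had 48, with 29 under median scaling, 25 with the strict filter, 22 with no replicate block, 11 with slide in place of the number, 29 with slide beside it and 2 without slide 5, and 12 to 57 with arrays or numbers left out. It fell to 24 without siHic5_2 replicate 4 at either time and to 31 without siHic5_2 replicate 2 at 2 h. Why these counts moved was not tested.

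Differences of the opposite sign (log2) were found with slide in place of the number for DBP (-0.0195), PTGES3 (-0.0481) and TNC (0.0097), and with all 48 arrays and slide for PTGES3 (-0.0136). Within slide 1, with 1 array at each time, they were ANKRD1 (-0.1049), CCND1 (0.0391), CORO2A (0.0332), ID3 (0.156) and ZNRF3 (0.0347). Within slide 2, also 1 against 1, they were CYP51A1 (-0.0203), PMAIP1 (-0.0069), PTGES3 (-0.0726) and TNC (0.1818). Within slide 3, with 3 arrays at 0 h and 1 at 2 h, genes called higher that were lower were BCL2L11 (-0.6633), DBP (-0.9848), KLF9 (-0.1297), LIMK2 (-0.2147), PIK3R1 (-0.7285), PTGES3 (-0.0969), PTGS2 (-0.5455) and RUNX2 (-0.3496). Genes called lower that were higher there were CCL2 (0.0002), CCL20 (0.3995), CXCL8 (0.1463), DUSP7 (0.0698), GRB10 (0.2557), HSPA5 (0.4834), KCNK6 (0.0811), KLF12 (0.0146), KLF13 (0.0685), LEF1 (0.1014), NFKB1 (0.0951), OSMR (0.4695), RELB (0.5993), TAGLN (0.0384), TNC (0.0034) and WNT5B (0.4448).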
